A study of Mus musculus with 24 samples.

Results

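The comparison set large liver tumors of wild-type mice against whole liver of PBS-treated wild-type mice of the same age, for 6 of the 24 samples of the series (3 tumors and 3 livers), chosen by their titles. All samples were from 9-month-old male C57BL/6J mice. The tumors were dissected from mice injected into the peritoneum with the carcinogen diethylnitrosamine (DEN), once, at 25 mg/kg and on day 15 of life, and the control mice received PBS at that age. The study asked how the stress-induced transcription factor CHOP, encoded by *Ddit3*, acts in this model, and tumors against untreated liver show what changes in a tumor that still has the gene. The methods count the tumors and livers by animal, and the labels name no donor. DEN-treated wild-type whole livers (n = 6), which can hold both nodules and uninvolved tissue, served as a second reference. Since the control mice had no DEN, exposure to DEN and tumor tissue cannot be told apart in the first comparison.

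DEN is activated by perivenous cytochrome P450 enzymes of the hepatocyte to a species that alkylates DNA, and a dose in the infant liver, whose hepatocytes are dividing, yields foci, adenomas and later carcinomas. The healthy liver divides its work by position. Perivenous hepatocytes, kept by Wnt signals from the central vein, make glutamine and metabolize drugs, and periportal hepatocytes make urea and glucose. Cells under amino acid or endoplasmic reticulum (ER) stress phosphorylate eIF2α, which favors translation of the factor ATF4 and, through it, transcription of CHOP and of genes of amino acid synthesis and transport.

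The measurements are bead array signals (Illumina MouseRef-8 v2.0, with 1 array for each sample). Values are normalized log2 signals, which cannot be compared between genes. Arrays are named by their set (A, B or C) and number. Values are always in the order of tumors A_04, A_08 and B_12 and of livers A_01, B_09 and C_17. Differences are tumor minus liver on the log2 scale with their standard error from a limma model of all 24 arrays, and "rose" and "fell" mean an adjusted p under 0.05. Of 8969 genes tested, 1727 (19.3%) passed, 972 (10.8%) higher and 755 (8.42%) lower in the tumors. The median difference over all genes was 0.00. The 3 tumors lay entirely above or below the 3 livers for 2476 genes (27.6%, 14.7% above and 12.9% below), among them 886 of the 972 that rose and 674 of the 755 that fell. The study's own thresholds, a fold over 1.5 with p under 0.05 before adjustment, were passed by 1107 higher (12.3%) and 868 lower genes (9.68%), 1975 in all. For a single gene, groups of 3 and 3 cannot give an exact permutation p under 0.1 (two-sided). Set A held tumors A_04 and A_08 with liver A_01, and set B held tumor B_12 with liver B_09. Of the genes that rose, 966 were also higher within set A and 966 within set B, and of those that fell, 753 and 749 were also lower. These genes were called on the same arrays and most had no overlap of the groups. This agreement was therefore largely fixed in advance and is no test of the array set.

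The arrays differed between the groups in the number of probes detected, and within the groups as well. Every tumor array detected more probes (10610 to 11123) than every liver array (9186 to 10240), with liver B_09 at the lower end. Tumor B_12 stood apart, with 475 genes more than 1 log2 unit from the median of the 3 tumors, against 119 for A_04 and 57 for A_08. Its correlation with the livers across genes was 0.897 to 0.906, against 0.940 to 0.955 for A_04 and 0.931 to 0.942 for A_08. Without it 1212 genes passed. Below, a call that was lost when 1 array was left out is given with that array and the adjusted p without it, as is a call lost when the 6 arrays were fitted alone. Losses under other settings are not given by gene, so a gene without such a remark need not be stable under all. Of 162 named genes that passed, 9 kept their call under every alternative. With an equal-variance test without moderation on the 6 arrays 153 lost it. With the authors' log2 values of the 6 arrays 67 lost it, or 72 with the replicate number in the model. The brightest probe stands for a gene. Probes of *Prom2*, *Klrb1b*, *Acta2* (0.31 to 2.44), *Il1rn* (1.14 to 4.07), *Cd63* (2.5 to 4.91), *Cdkn1a* (0.69 to 2.77), *Aldh1l2* (0.14 to 1.47), *Tbx3* (-1.56 to -0.25), *Ccnd1* (0.65 to 1.94), *Ces3b* (-3.53 to -2.23) and *Cbr3* (1.96 to 3.08) differed among themselves by over 1 log2 unit. Of the 972 genes that rose, 218 were not detected in any liver, and of the 755 that fell, 35 were not detected in any tumor. For such genes the fold is a lower bound, set against the lowest detected signal of those arrays. Genes named with several near-identical copies (Cyp2b, Cyp2c, Cyp4a12, Gsta, Hamp and the H2 class I genes) may share signal between copies. In whole tissue, fewer cells of a type and less RNA per cell cannot be told apart.

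**Figure D1:**
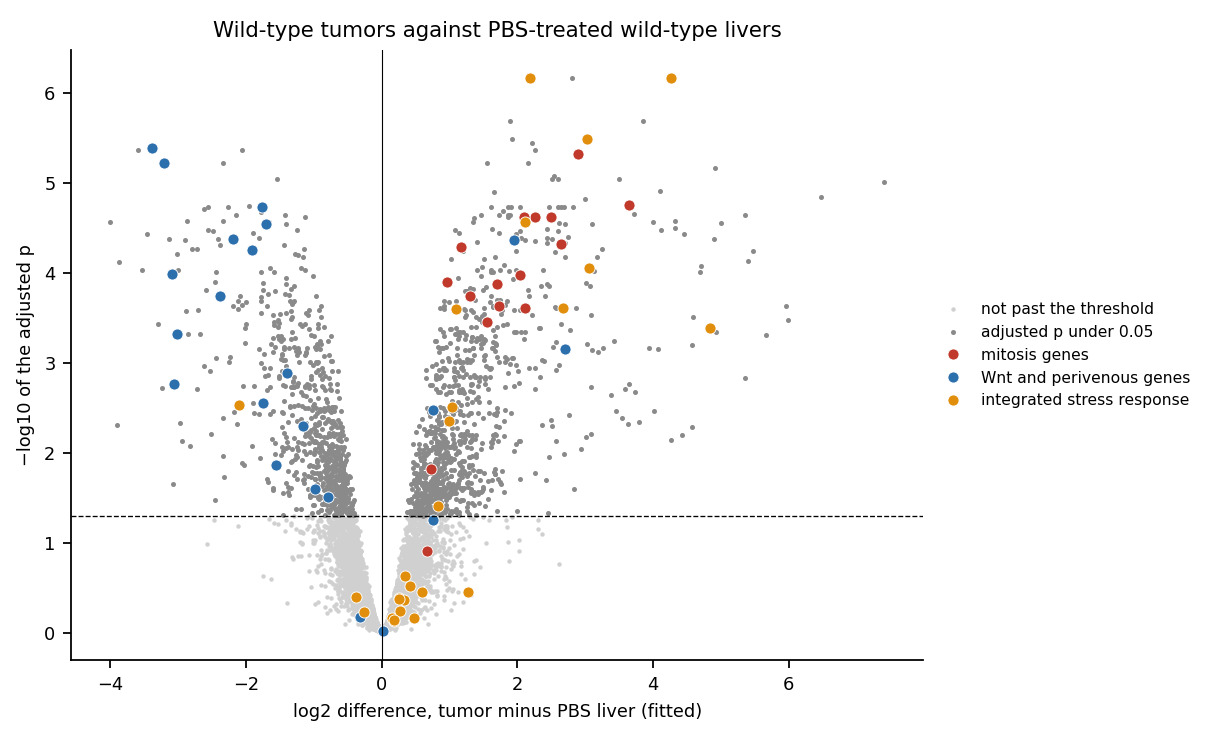
Each point is 1 of 8969 genes, with the fitted log2 difference, tumor minus PBS-treated liver, on the x axis and −log10 of the adjusted p from limma on the y axis. The dashed line is an adjusted p of 0.05, and the mitosis genes lie to the right, the Wnt and perivenous genes mostly to the left.

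Changes were larger upward than downward. More than 4-fold differences were fitted for 147 genes that rose and 69 that fell, and more than 16-fold differences for 30 and 1. Among the genes that rose most, *Tff3*, a secreted trefoil factor of mucosal repair, had log2 values of 12.88, 12.45 and 13.03 in the tumors and 5.04, 6.86 and 7.04 in the livers. All 3 tumors were close to each other and far above every liver, a rise by 6.47 ± 0.81 (adjusted p = 1.43e-05, detected in 2 of 3 livers). *Akr1c18*, a reductase that inactivates progesterone, had values of 11.42, 10.77 and 13.44 in the tumors and 4.44, 4.33 and 4.63 in the livers. It was not detected in any liver and was at least 88.0-fold (adjusted p = 9.66e-06) higher in the tumors, of which B_12 was the highest. *Spink1*, a secreted trypsin inhibitor, had values of 9.78, 10.58 and 12.97 in the tumors and 5.07, 4.97 and 5.32 in the livers, a rise by 5.99 ± 1.06 (adjusted p = 0.000331, detected in 1 of 3 livers) with no overlap of the groups. *Wfdc15b*, of the whey acidic protein family, rose by 5.95 ± 1.01 (adjusted p = 0.000233, detected in 1 of 3 livers), and the tetraspanins *Tspan8* and *Cd63* rose by 5.67 ± 1.05 (adjusted p = 0.000493, detected in 2 of 3 livers) and 4.91 ± 0.57 (adjusted p = 6.79e-06). For *Cd63* the tumors (11.58, 11.81 and 11.87) differed little, and the livers were at 7.05, 6.52 and 6.96. *Gldn*, known from the node of Ranvier, was at least 23.6-fold (adjusted p = 5.75e-05) higher, *Igdcc4*, of the immunoglobulin superfamily, at least 24.2-fold (adjusted p = 2.27e-05) and *Neurl1a*, a ubiquitin ligase, at least 20.5-fold (adjusted p = 4.15e-05). *Klrb1b*, named as a natural killer cell receptor, was at least 14.6-fold higher at its brightest probe, and its probes differed widely, from 0.58 to 5.07. *Prom2*, a membrane protein of epithelial protrusions, rose at its brightest probe by 4.57 ± 0.87 (adjusted p = 0.00063, detected in 2 of 3 livers), while its other probe had a difference of -0.42.

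Among the genes that fell most were enzymes of amino acid and nicotinamide metabolism. *Etnppl*, which breaks down phosphoethanolamine, had log2 values of 6.74, 5.49 and 5.12 in the tumors and 9.67, 9.72 and 9.98 in the livers. The livers agreed closely, and tumor A_04 lay nearest to them, in a fall by 4.01 ± 0.55 (adjusted p = 2.68e-05). *Nnmt*, which methylates nicotinamide, had values of 9.72, 7.57 and 8.17 in the tumors and 12.35, 12.31 and 12.49 in the livers and fell by 3.90 ± 0.94 (adjusted p = 0.00491). *Hpd*, of tyrosine breakdown, had values of 10.15, 9.73 and 7.99 in the tumors and 12.55, 12.50 and 12.70 in the livers and fell by 3.29 ± 0.59 (adjusted p = 0.000371). In both, no tumor reached the range of the livers. *Nat8*, which acetylates cysteine conjugates, fell by 3.59 ± 0.40 (adjusted p = 4.31e-06), the carboxylesterase *Ces3b* fell by 3.53 ± 0.55 (adjusted p = 9.2e-05) and *Susd4*, a complement regulator, fell by 3.01 ± 0.45 (adjusted p = 6.12e-05, detected in 1 of 3 tumors). *Mfsd2a*, a carrier of lysophospholipids, was even in the tumors (6.61, 6.59 and 6.81) and uneven in the livers (11.18, 7.27 and 10.76), where B_09 was close to the tumors. Its fall was by 3.07 ± 0.93 (adjusted p = 0.0224). *Mfsd2a* lost its call without liver A_01, tumor A_08, tumor B_12 or liver C_17 (adjusted p = 0.054 to 0.115). *Mfsd2a* did not pass when the 6 arrays were fitted alone (adjusted p = 0.0548).

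**Figure D2:**
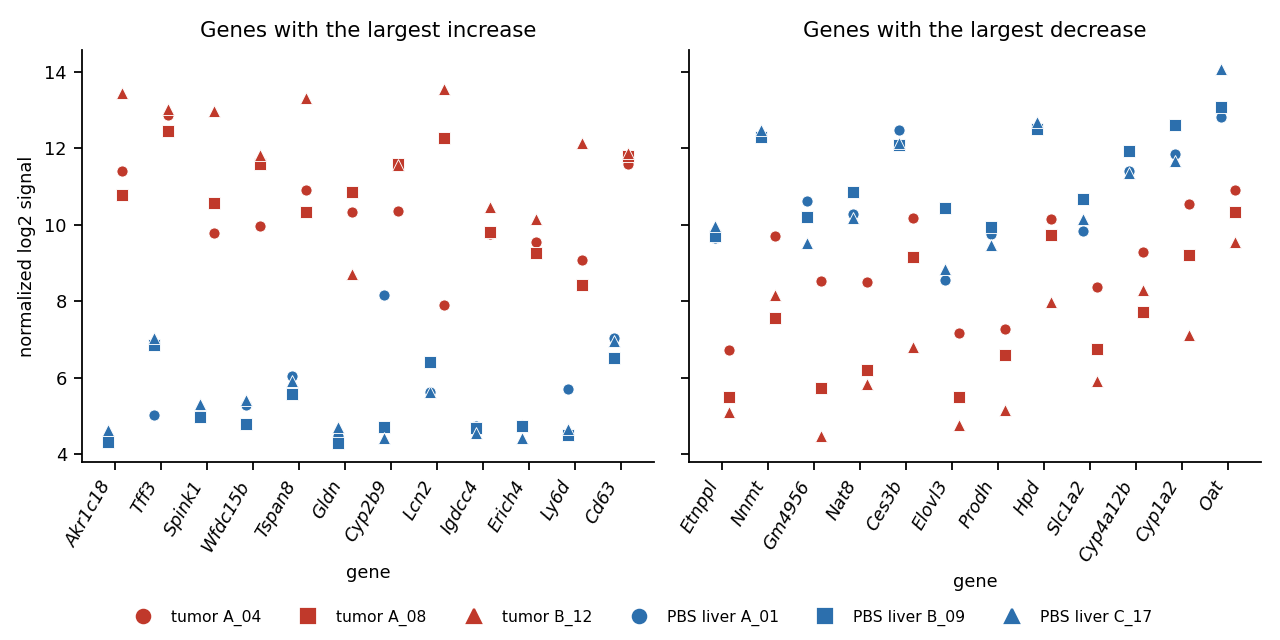
Normalized log2 signal (y axis) of the 12 genes with the largest fitted increase (left) and decrease (right) among those that passed the test without overlap of the groups, with 1 point per array. Red symbols are tumors and blue symbols PBS-treated livers, and tumor B_12 (red triangles) often lies at the far end.

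Genes of the fetal liver and of liver tumors had the highest median difference of the lists with at least 10 tested genes. The lists were chosen with earlier results of these data known. Of 17 tested, 13 rose, as did 10.8% of all genes, and 0 fell, as did 8.42% of all genes, with a median of 4.00 (3.82 with undetected genes at their bound). By the share that rose, the mitosis list described below was higher (93.8% against 76.5%). *Afp*, alpha-fetoprotein, the main serum protein of the fetal liver, had values of 9.12, 8.71 and 9.36 in the tumors and 4.50, 4.51 and 4.47 in the livers. No liver had a detected signal, and the rise was at least 12.5-fold (adjusted p = 0.00517). *Gpc3*, a cell-surface proteoglycan used as a marker of hepatocellular carcinoma, had values of 8.26, 8.20 and 11.44 in the tumors and 5.54, 4.57 and 4.50 in the livers, with B_12 far above the other tumors, and rose by 4.43 ± 1.11 (adjusted p = 0.00635, detected in 1 of 3 livers). *Golm1*, a Golgi membrane protein, was at 10.14, 9.86 and 11.18 in the tumors and 6.43, 6.60 and 6.14 in the livers and rose by 4.00 ± 0.54 (adjusted p = 2.68e-05). The tumors of each of these genes stood clear of the livers. *Igf2bp3*, an RNA-binding protein of the fetus and of tumors, was at least 1.43-fold (adjusted p = 0.00171) higher. *Lcn2*, a binder of bacterial siderophores, ranged widely among the tumors (7.90, 12.28 and 13.55) above livers at 5.62, 6.41 and 5.63. *Ly6d*, a surface protein anchored by lipid, rose by 4.92 ± 0.90 (adjusted p = 0.000451, detected in 1 of 3 livers), the desaturase *Scd2* by 2.03 (detected in 1 of 3 livers), the carbonyl reductase *Cbr3* by 3.08 (detected in 2 of 3 livers) and the guidance receptor *Robo1* by 1.67. *Igf2*, the fetal growth factor, was at 8.46, 5.78 and 5.49 in the tumors and 5.58, 5.48 and 4.72 in the livers: only tumor A_04 stood out, and the difference did not pass, with a difference of 1.32 ± 0.96 (adjusted p = 0.378, detected in 1 of 3 livers). *Cd24a* was not detected in either group. *Gpc3* lost its call without tumor B_12 (adjusted p = 0.0567) and *Robo1* without liver B_09 (adjusted p = 0.0505). *Igf2bp3* did not pass when the 6 arrays were fitted alone (adjusted p = 0.0693).

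The imprinted growth genes, silenced on 1 parental copy, passed in both directions: of 10 tested, 2 rose and 1 fell. Among all genes 10.8% rose and 8.42% fell. Few genes of the list passed, and whether it differs from all genes was not tested. *Phlda2*, a brake on placental growth, was at least 2.82-fold (adjusted p = 0.00054) higher, with values of 7.00, 6.49 and 7.25 in the tumors and 4.42, 4.85 and 5.18 in the livers. *Grb10*, an adaptor that dampens insulin signaling, rose by 1.44 ± 0.48 (adjusted p = 0.0363), mostly through tumor B_12 (6.58, 7.34 and 9.27 against 6.36, 6.37 and 6.15 in the livers). *Snrpn*, a splicing protein, fell by 1.25 ± 0.34 (adjusted p = 0.011), and tumor A_08 lay within the range of the livers. The counts ran from 1 to 4 higher and 0 to 2 lower when 1 array was left out, with 4 higher without A_01 and 2 lower without A_08. *Grb10* lost its call without liver A_01, liver B_09, tumor B_12 or liver C_17 (adjusted p = 0.0646 to 0.311) and *Snrpn* without liver A_01 or tumor A_04 (adjusted p = 0.0617 to 0.0884). *Grb10* and *Snrpn* did not pass when the 6 arrays were fitted alone (adjusted p = 0.17 to 0.187).

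Genes of cell division rose together. Of 16 mitosis genes tested, 15 rose and 0 fell, with a median of 1.89 (1.67 with the 9 genes undetected in all livers at their bound). *Prc1*, which bundles the microtubules of the spindle midzone, had values of 9.13, 8.82 and 9.10 in the tumors and 5.70, 4.64 and 5.79 in the livers and rose by 3.64 ± 0.46 (adjusted p = 1.73e-05, detected in 2 of 3 livers). *Cdc20*, which activates the anaphase-promoting complex, had values of 8.27, 8.15 and 7.95 in the tumors and 5.56, 4.95 and 5.20 in the livers and rose by 2.89 ± 0.32 (adjusted p = 4.74e-06, detected in 1 of 3 livers). The 3 tumors were almost equal in both and lay far above the livers. *Cdk1*, the kinase of mitotic entry, was at least 3.07-fold (adjusted p = 2.39e-05) higher, and *Plk1*, a kinase of spindle assembly, at least 4.49-fold (adjusted p = 4.73e-05). *Aurka*, a centrosome kinase, rose by 2.12 ± 0.36 (adjusted p = 0.000247, detected in 1 of 3 livers), *Birc5*, the survivin subunit of the chromosomal passenger complex, by 2.10 ± 0.28 (adjusted p = 2.38e-05, detected in 1 of 3 livers) and *Cenpa*, the histone of centromeres, by 1.73 ± 0.29 (adjusted p = 0.00023). *Foxm1*, a transcription factor of mitotic genes, was not detected in any liver and did not pass. The per-tumor medians of the list, 1.93, 1.74 and 1.92, were close.

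S phase genes followed in part: 12 of 19 rose and 0 fell (median 0.68). *Mcm6*, of the replicative helicase, had values of 8.72, 8.45 and 9.38 in the tumors and 7.12, 5.67 and 6.96 in the livers and rose by 2.26 ± 0.33 (adjusted p = 4.36e-05), and the helicase subunits *Mcm5* and *Mcm2* rose by 1.48 and 1.62 (detected in 1 of 3 livers). *Uhrf1*, which guides DNA methylation to new strands, was at least 4.62-fold (adjusted p = 8.99e-06) higher. *Pcna*, the sliding clamp, did not pass, with a difference of -0.13 ± 0.27 (adjusted p = 0.792). Of the 12 G1 genes tested, 3 rose (25.0%, against 10.8% of all genes). *Ccnd1*, cyclin D1, had values of 11.04, 11.26 and 10.99 in the tumors and 9.17, 9.05 and 9.22 in the livers and rose by 1.94 ± 0.28 (adjusted p = 4.29e-05), with little spread in either group. The other 2 encode cyclin-dependent kinase inhibitors. *Cdkn2b* (p15) rose by 3.79 ± 0.90 (adjusted p = 0.0045, detected in 1 of 3 livers) and *Cdkn1a* (p21) by 2.77 ± 0.65 (adjusted p = 0.00378), and both were highest in B_12 (7.55, 7.57 and 11.08 and 8.05, 8.77 and 10.67).

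Mitotic promoters often carry a CHR element, with the letters TTTGAA, near the start of transcription. In the 300 bases of RefSeq promoters (250 before to 50 after the start, GRCm38.p6, both strands), TTTGAA was found in 20.2% of 27025 genes and in 10 of the 13 (76.9%) mitosis genes that rose and had a promoter entry. CCAAT was found in 41.1% of all genes and in 9 of the 13 (69.2%). These counts describe the letters only. The 100 bases before the start of 4 of the mitosis genes that rose are shown to let the element be seen. TTTGAA, or TTCAAA where it lies on the other strand, is in capitals. For *Prc1* a later promoter entry is shown, and for the others the first.
Cdk1: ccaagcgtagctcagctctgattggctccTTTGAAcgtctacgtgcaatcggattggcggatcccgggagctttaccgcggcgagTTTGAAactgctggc
Cdc20: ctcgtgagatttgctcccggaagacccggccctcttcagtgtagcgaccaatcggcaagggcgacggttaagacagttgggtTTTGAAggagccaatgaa
Kif11: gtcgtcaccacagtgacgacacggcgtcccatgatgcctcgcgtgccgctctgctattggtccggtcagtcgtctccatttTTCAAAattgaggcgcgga
Prc1: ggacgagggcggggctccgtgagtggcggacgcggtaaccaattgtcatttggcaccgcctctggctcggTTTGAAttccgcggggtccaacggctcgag
They lie at chr10:69352913-69353012 (minus strand), chr4:118437344-118437443 (minus), chr19:37376282-37376381 (plus) and chr7:80294376-80294475 (plus). *Kif11*, a spindle motor, was at 5.46, 4.97 and 5.33 in the tumors and 4.34, 4.57 and 4.69 in the livers, detected in 2 of 3 tumors and in no liver, which leaves no lower bound above 1.0-fold for its rise (adjusted p = 0.015). *Kif11* lost its call without liver A_01, tumor A_04 or tumor B_12 (adjusted p = 0.0545 to 0.0621). *Kif11* did not pass when the 6 arrays were fitted alone (adjusted p = 0.0968).

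Targets of p53 were uneven. Of 26 p53 and DNA damage genes tested, 7 rose (26.9%, against 10.8% of all genes) and 1 fell (median 0.27, or 0.13 with bounds). *Trp53inp1*, a stress protein of autophagy and apoptosis, had values of 11.17, 11.22 and 11.25 in the tumors and 9.51, 9.61 and 10.07 in the livers and rose by 1.48 ± 0.26 (adjusted p = 0.000299) with even tumors, and *Gadd45a*, a growth-arrest gene, rose by 1.90 ± 0.38 (adjusted p = 0.00102). *Phlda3*, which restrains AKT, was at least 1.44-fold (adjusted p = 0.0489) higher, but its tumors were at 5.12, 5.15 and 7.57, and *Gtse1* and *Ddit4l* were likewise highest in B_12 (5.99, 5.90 and 8.13 and 5.74, 6.16 and 8.56). *Mgmt*, which removes alkyl groups from DNA and is the repair enzyme for lesions of the kind DEN makes, fell by 1.16 ± 0.35 (adjusted p = 0.0203), with values of 5.90, 5.88 and 7.25 in the tumors and 7.79, 6.74 and 7.95 in the livers. One tumor, B_12, lay among the livers. *Mdm2*, the ubiquitin ligase of p53, did not pass, with a difference of 0.34 ± 0.20 (adjusted p = 0.258). Without B_12 only 3 genes of the list rose. *Phlda3* lost its call without liver A_01, liver B_09, tumor B_12 or liver C_17 (adjusted p = 0.0667 to 0.421), *Gtse1* without tumor B_12 (adjusted p = 0.0676), *Ddit4l* without liver B_09, tumor B_12 or liver C_17 (adjusted p = 0.0833 to 0.383) and *Mgmt* without liver A_01, tumor A_04, tumor A_08 or liver C_17 (adjusted p = 0.0753 to 0.111). *Phlda3*, *Gtse1*, *Ddit4l* and *Mgmt* did not pass when the 6 arrays were fitted alone (adjusted p = 0.105 to 0.29).

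Immediate-early genes and markers of MAPK output rose in 6 of 16 cases, with none lower. *Egr1*, a zinc-finger factor induced within minutes by growth signals, had values of 13.30, 13.61 and 13.40 in the tumors and 8.17, 12.22 and 9.02 in the livers and rose by 3.63 ± 0.87 (adjusted p = 0.0048). Liver B_09 was far above the other livers and close to the tumors, as it was for *Fos* (7.37, 7.78 and 8.68 in the tumors and 4.76, 8.55 and 4.51 in the livers), which rose by 2.00 ± 0.69 (adjusted p = 0.0442, detected in 1 of 3 livers). Such genes are also induced by handling of tissue, which was not tested. *Dusp4*, a MAPK phosphatase, rose by 1.36 ± 0.43 (adjusted p = 0.0295, detected in 1 of 3 livers) and *Junb* by 1.27 ± 0.39 (adjusted p = 0.0238), while the feedback phosphatase *Dusp6* did not pass, with a difference of 0.64 ± 0.24 (adjusted p = 0.0665). Without B_12, or without liver C_17, 2 of the list rose. *Fos* lost its call without liver A_01, tumor A_08, tumor B_12 or liver C_17 (adjusted p = 0.0782 to 0.256), *Dusp4* without liver A_01, tumor A_04, tumor B_12 or liver C_17 (adjusted p = 0.0714 to 0.091) and *Junb* without liver A_01, tumor A_08, tumor B_12 or liver C_17 (adjusted p = 0.0621 to 0.145). *Fos* and *Junb* did not pass when the 6 arrays were fitted alone (adjusted p = 0.0787 to 0.239).

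*Ddit3*, the gene of CHOP, had log2 values of 8.90, 8.64 and 8.37 in the tumors and 6.44, 6.41 and 6.50 in the livers. The groups were narrow and far apart, a rise by 2.19 ± 0.20 (adjusted p = 6.75e-07). Of 26 genes of the integrated stress response tested, 11 rose and 1 fell, with a median of 0.54 (0.41 with bounds). Of the regulators 6 of 10 rose, and of the effectors 5 of 16 rose and 1 fell. *Nupr1*, a small chromatin protein of the stress response, had values of 9.63, 10.22 and 9.16 in the tumors and 5.47, 5.36 and 5.40 in the livers and rose by 4.26 ± 0.39 (adjusted p = 6.75e-07, detected in 2 of 3 livers). *Atf3*, a repressing member of the ATF family, had values of 8.67, 7.85 and 7.05 in the tumors and 4.85, 4.85 and 4.80 in the livers, was undetected in every liver and was at least 5.42-fold (adjusted p = 3.2e-06) higher. Every tumor lay above every liver in both genes, with the order of the tumors differing. *Trib3*, a pseudokinase that restrains ATF4 and AKT, was at least 1.16-fold (adjusted p = 0.000254) higher, and *Atf5* rose by 1.04 ± 0.24 (adjusted p = 0.00307). *Atf4* itself, whose control is mainly translational, did not pass, with a difference of 0.19 ± 0.32 (adjusted p = 0.744), and neither did the phosphatase subunit *Ppp1r15a*, at -0.38 ± 0.29 (adjusted p = 0.406).

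Effectors of the response were split. *Fgf21*, a hormone of the fasting and stressed liver, had values of 10.48, 10.88 and 11.20 in the tumors and 6.10, 5.33 and 6.61 in the livers and rose by 4.84 ± 0.87 (adjusted p = 0.000407, detected in 2 of 3 livers). *Ddit4*, an inhibitor of mTORC1, had values of 8.89, 9.09 and 9.00 in the tumors and 6.50, 6.55 and 5.91 in the livers and rose by 2.67 ± 0.46 (adjusted p = 0.000243), and *Tnfrsf12a*, the receptor of TWEAK, rose by 3.06 ± 0.47 (adjusted p = 8.81e-05). In all 3 genes the tumors agreed and did not overlap with the livers. *Chac1*, which degrades glutathione, did not pass, with a difference of 0.60 ± 0.41 (adjusted p = 0.352), and *Slc7a5*, a carrier of large amino acids, did not either, at 0.28 ± 0.30 (adjusted p = 0.58). *Cth*, which makes cysteine, fell by 2.10 ± 0.47 (adjusted p = 0.0029), with values of 7.66, 7.91 and 7.77 in the tumors and 9.19, 10.17 and 10.28 in the livers.

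Serine and asparagine synthesis rose at particular steps. *Psat1*, the second enzyme of serine synthesis, had values of 9.05, 8.68 and 11.11 in the tumors and 4.90, 4.55 and 5.29 in the livers and rose by 4.70 ± 0.73 (adjusted p = 9.79e-05, detected in 1 of 3 livers), while *Phgdh*, the first, was not detected in either group. *Asns*, which makes asparagine, had values of 9.62, 9.85 and 10.10 in the tumors and 4.91, 7.96 and 7.67 in the livers, with liver A_01 well below the other livers, and rose by 3.01 ± 0.76 (adjusted p = 0.00658, detected in 2 of 3 livers). *Aldh18a1*, the entry to proline synthesis, rose by 2.11 ± 0.29 (adjusted p = 2.71e-05, detected in 1 of 3 livers). Of the mitochondrial folate enzymes, *Aldh1l2* was at least 1.8-fold (adjusted p = 0.0264) higher and *Mthfd2*, at 5.14, 5.36 and 5.39 in the tumors and 4.49, 4.54 and 4.55 in the livers, rose with no lower bound above 1.0-fold (adjusted p = 0.0143), and the cytosolic *Aldh1l1* fell by 1.28 ± 0.35 (adjusted p = 0.0116). In all, 5 of 10 rose and 1 fell (median 0.42, or 0.00 with bounds). Aminoacyl-tRNA synthetases passed at about the share of all genes, with 3 of 28 higher (10.7% against 10.8%) and 2 lower (7.14% against 8.42%). The cytosolic *Gars*, *Lars* and *Sars* rose by 0.66, 0.66 and 0.69. The mitochondrial *Nars2* and *Rars2* fell by 1.41 (detected in 2 of 3 tumors) and 0.62. *Wars*, of tryptophan, did not pass, with a difference of 0.46 ± 0.19 (adjusted p = 0.106). Its tumors all lay above its livers, and its unadjusted p from limma was under 0.05. Against DEN-treated livers *Wars* passed as higher in the tumors. The study reports upregulated *Wars* mRNA in large tumors of DEN-treated mice, measured by quantitative RT-PCR. Among 21 genes of ER folding and degradation, 4 rose and 1 fell (median 0.37). *Pdia6*, a disulfide isomerase, rose by 1.19 ± 0.30 (adjusted p = 0.00653) and *Hsp90b1* by 0.58, while *Hspa5*, the chaperone BiP, did not pass, with a difference of 0.78 ± 0.41 (adjusted p = 0.201) and was highest in liver B_09 (9.02, 9.02 and 8.80 in the tumors and 7.54, 9.26 and 7.69 in the livers). Without tumor A_04, tumor B_12 or liver C_17, 2 of the ER list rose, and without tumor B_12, 3 of the serine list. *Asns* lost its call without liver A_01 (adjusted p = 0.055), *Aldh1l2* without liver B_09, tumor B_12 or liver C_17 (adjusted p = 0.0677 to 0.244), *Mthfd2* without tumor B_12 (adjusted p = 0.0542) and *Aldh1l1* without liver B_09 or tumor B_12 (adjusted p = 0.0754 to 0.0798). *Rars2* lost its call without tumor A_04, liver B_09, tumor B_12 or liver C_17 (adjusted p = 0.057 to 0.136), *Pdia6* without tumor B_12 (adjusted p = 0.0519) and *Hsp90b1* without tumor A_04 or liver C_17 (adjusted p = 0.169 to 0.17). *Aldh1l2*, *Mthfd2*, *Aldh1l1*, *Gars*, *Lars*, *Sars*, *Rars2* and *Hsp90b1* did not pass when the 6 arrays were fitted alone (adjusted p = 0.0518 to 0.195).

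**Figure D3:**
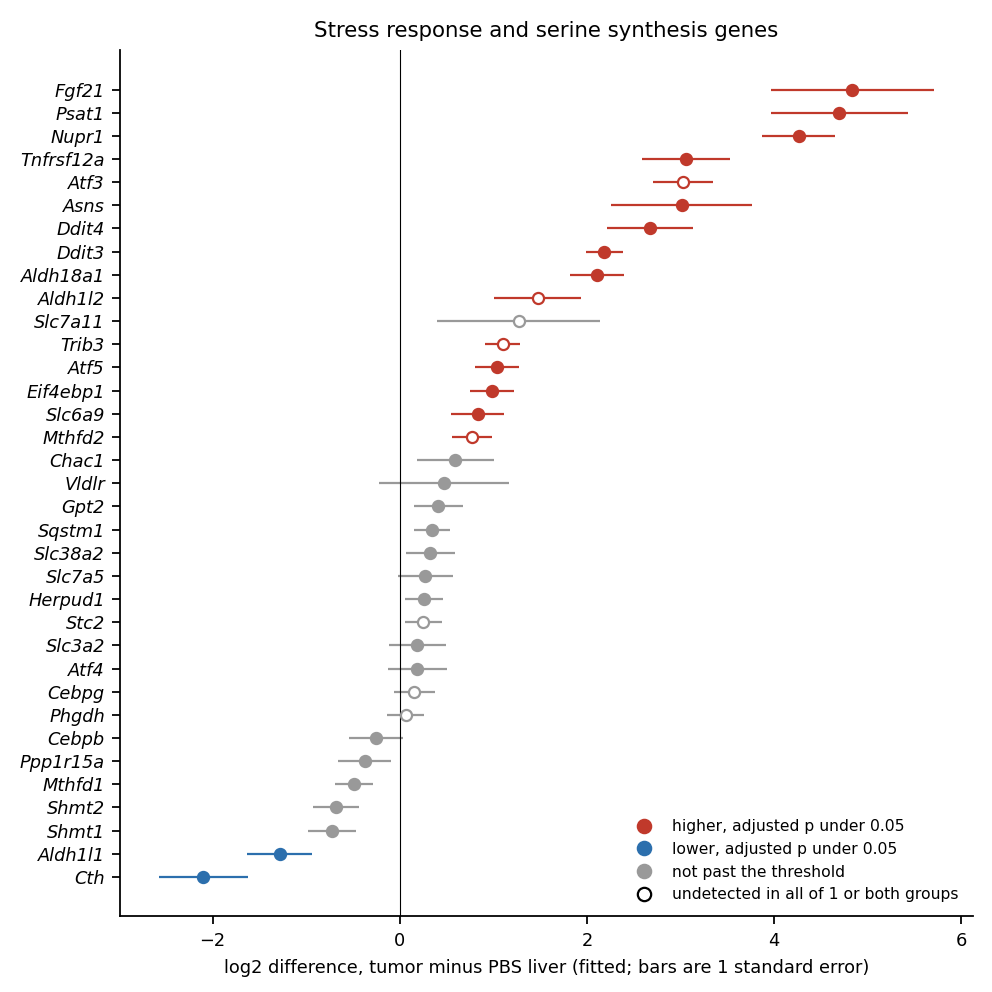
Fitted log2 difference, tumor minus PBS-treated liver, with 1 standard error, for the tested genes of the integrated stress response and of serine, one-carbon and asparagine synthesis. Red genes rose, blue genes fell and grey genes did not pass, and open symbols mark genes undetected in every array of 1 or both groups.

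ATF4 and CHOP, each paired with a C/EBP protein, bind elements with the letters TGATGNAA. These letters were found in 4.51% of the RefSeq promoters of all genes. They were found in 6 of the 15 (40.0%) with a promoter entry among the 18 genes of the stress response, serine and synthetase lists that rose, and in 7 of the 38 (18.4%) that did not rise. Within the stress response list alone the shares were closer, 4 of 10 (40.0%) that rose and 4 of 13 (30.8%) that did not. The 150 bases before the start of 4 of the genes that rose are shown because they carry the letters, in capitals, on either strand (GRCm38.p6).
Atf3: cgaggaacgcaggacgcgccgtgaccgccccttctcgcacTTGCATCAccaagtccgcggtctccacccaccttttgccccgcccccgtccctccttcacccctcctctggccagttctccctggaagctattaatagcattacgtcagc
Nupr1: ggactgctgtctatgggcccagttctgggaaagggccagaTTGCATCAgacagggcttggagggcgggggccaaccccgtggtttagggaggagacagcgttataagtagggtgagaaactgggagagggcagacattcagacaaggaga
Fgf21: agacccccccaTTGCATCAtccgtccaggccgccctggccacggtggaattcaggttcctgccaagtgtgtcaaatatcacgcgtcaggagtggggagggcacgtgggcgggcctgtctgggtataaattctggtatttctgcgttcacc
Asns: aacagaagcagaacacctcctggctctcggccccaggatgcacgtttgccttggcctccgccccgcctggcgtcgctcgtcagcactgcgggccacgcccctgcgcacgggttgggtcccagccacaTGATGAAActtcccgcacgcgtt
They lie at chr1:191183334-191183483, chr7:126625471-126625620, chr7:45615491-45615640 and chr6:7693210-7693359, all on the minus strand. A match is not a bound site, and binding was not measured.

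Perivenous and Wnt genes fell. Of 22 tested, 16 fell and 3 rose, with a median of -1.63. *Cyp2e1*, the P450 of ethanol and DEN, had values of 13.51, 13.39 and 12.44 in the tumors and 14.69, 15.03 and 14.92 in the livers and fell by 1.77 ± 0.23 (adjusted p = 1.85e-05). *Cyp1a2*, a P450 of arylamines, had values of 10.55, 9.21 and 7.12 in the tumors and 11.85, 12.62 and 11.67 in the livers and fell by 3.08 ± 0.48 (adjusted p = 0.000102). *Glul*, glutamine synthetase, had values of 8.52, 7.25 and 6.29 in the tumors and 9.12, 9.48 and 8.70 in the livers and fell by 1.75 ± 0.39 (adjusted p = 0.00279). In each the tumors lay below all livers, and A_04 was the nearest to them and B_12 the farthest. The glutamate carrier *Slc1a2* fell by 3.20 ± 0.37 (adjusted p = 5.9e-06), and *Prodh*, which opens proline breakdown, by 3.38 ± 0.37 (adjusted p = 4.1e-06, detected in 2 of 3 tumors). Feedback genes of the Wnt pathway fell as well: *Notum*, a secreted lipase that inactivates Wnt ligands, by 2.19 ± 0.31 (adjusted p = 4.21e-05), the factor *Sp5* by 1.91 ± 0.28 (adjusted p = 5.54e-05, detected in 2 of 3 tumors) and *Axin2*, a scaffold of β-catenin destruction, by 1.39 ± 0.29 (adjusted p = 0.00129, detected in 2 of 3 tumors). *Lgr5*, a receptor for R-spondins, was undetected in every tumor and was at least 1.22-fold (adjusted p = 0.0311) lower. *Ctnnb1*, the gene of β-catenin, rose by 0.76 ± 0.17 (adjusted p = 0.00336), with values of 12.11, 11.91 and 12.16 in the tumors and 11.18, 11.63 and 11.09 in the livers, and *Ccnd1*, also on the list, rose as given above. The other member that rose, *Slc1a4*, an alanine and serine carrier, was at least 4.81-fold higher. Per-tumor medians of the list were -1.0, -1.56 and -2.40. *Lgr5* lost its call without tumor A_08, liver B_09, tumor B_12 or liver C_17 (adjusted p = 0.0639 to 0.104). *Glul*, *Lgr5* and *Ctnnb1* did not pass when the 6 arrays were fitted alone (adjusted p = 0.0582 to 0.085).

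Periportal genes fell in part. Of 19 periportal genes, 10 fell and 3 rose (median -0.65). *Ass1*, of the urea cycle, had values of 12.81, 12.74 and 11.72 in the tumors and 13.75, 13.73 and 13.47 in the livers and fell by 1.23 ± 0.28 (adjusted p = 0.0029), and *Cps1* and *Otc*, the first steps of the cycle, fell by 1.25 ± 0.34 (adjusted p = 0.0105) and 1.88 ± 0.40 (adjusted p = 0.00181). *Pck1*, which commits oxaloacetate to glucose, fell by 1.72 ± 0.36 (adjusted p = 0.00139), and it was 1 of 4 genes that fell among 10 of gluconeogenesis. *Apoa4*, a lipoprotein of intestine and stressed liver, had values of 13.74, 14.37 and 14.86 in the tumors and 10.33, 9.52 and 9.36 in the livers, with all tumors far above the livers, and rose by 4.59 ± 0.80 (adjusted p = 0.000305). *Cdh1*, E-cadherin, rose by 2.34 ± 0.49 (adjusted p = 0.00144). Without liver B_09, 5 periportal genes fell. *Cps1* lost its call without liver B_09 (adjusted p = 0.0585). *Otc* did not pass when the 6 arrays were fitted alone (adjusted p = 0.0901).

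Many genes of drug metabolism fell. Of 41 P450 genes of families 1 to 4, 21 fell and 4 rose (median -0.91). *Cyp2c50* had values of 12.51, 11.03 and 9.62 in the tumors and 14.06, 13.94 and 13.76 in the livers and fell by 2.87 ± 0.39 (adjusted p = 2.64e-05), and *Cyp2c37* fell by 2.72 ± 0.40 (adjusted p = 5.43e-05). *Cyp2b10*, the target of the receptor CAR, was undetected in every tumor and was at least 4.48-fold (adjusted p = 5.39e-05) lower, against its relatives *Cyp2b9*, which rose by 5.40 ± 0.82 (adjusted p = 7.27e-05, detected in 1 of 3 livers), and *Cyp2b13*, at least 6.87-fold (adjusted p = 0.00197) higher. *Nr1i3*, the gene of CAR, fell by 1.81 ± 0.42 (adjusted p = 0.00368). Of 23 conjugation enzymes, 14 fell and 1 rose (median -1.11), among them the glycine methyltransferase *Gnmt* by 2.54 ± 0.52 (adjusted p = 0.00122) and the glucuronosyltransferase *Ugt2b1* by 2.02 ± 0.38 (adjusted p = 0.000593). Of 29 antioxidant targets of NRF2, 3 rose (10.3%) and 2 fell (6.9%), near the 10.8% and 8.42% of all genes. Without A_04, B_09 or C_17 1 rose, with 4 lower without B_09. *Nqo1*, its usual reporter, did not pass, with a difference of 0.57 ± 0.65 (adjusted p = 0.603, detected in 2 of 3 livers).

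Genes of male liver fell. Of 16 male-biased genes tested, 10 fell and 0 rose (median -1.50), and of 8 female-biased genes 3 rose and 1 fell. *Elovl3*, an elongase of very long fatty acids, had values of 7.18, 5.50 and 4.76 in the tumors and 8.56, 10.43 and 8.85 in the livers and fell by 3.47 ± 0.49 (adjusted p = 3.71e-05, detected in 2 of 3 tumors). *Hsd3b5*, a steroid dehydrogenase, had values of 10.86, 7.47 and 7.50 in the tumors and 10.33, 12.58 and 12.61 in the livers and fell by 3.24 ± 0.70 (adjusted p = 0.00189). Its tumor A_04 lay above liver A_01, so the groups overlapped. *Cyp4a12a* fell by 2.62 ± 0.53 (adjusted p = 0.00107), and *Cyp7b1*, an oxysterol hydroxylase, by 2.73 ± 0.59 (adjusted p = 0.00195). Male-biased genes depend on pulsed growth hormone. Its products *Igf1* and *Igfals*, the carrier subunit of IGF, fell by 1.68 ± 0.50 (adjusted p = 0.0209) and 1.64 ± 0.35 (adjusted p = 0.00183), and *Igfbp1* rose by 4.02 ± 0.93 (adjusted p = 0.00342), with liver B_09 near the tumors (10.28, 10.13 and 12.17 in the tumors and 5.39, 9.21 and 5.93 in the livers). None of the 7 receptor and signaling genes of the axis passed in limma, and 1 had an unadjusted p under 0.05. Their summed signal was 4904 to 12191 in the tumors and 11340 to 12117 in the livers. Against DEN-treated livers 3 of these 7 were lower in the tumors, as were 10.2% of all genes. *Igf1* lost its call without tumor B_12 or liver C_17 (adjusted p = 0.0805 to 0.143). *Hsd3b5* did not pass when the 6 arrays were fitted alone (adjusted p = 0.0613).

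Bile acid genes fell in 14 of 27 cases and 1 rose (median -0.91, or -0.64 with bounds). *Cyp7a1*, the rate-limiting enzyme of bile acid synthesis, had values of 9.33, 8.70 and 7.80 in the tumors and 11.02, 10.64 and 11.31 in the livers and fell by 2.38 ± 0.39 (adjusted p = 0.000181). *Cyp8b1*, which makes cholic acid, fell by 2.46 ± 0.39 (adjusted p = 0.000126), the uptake carriers *Slc10a1* and *Slco1b2* by 2.11 ± 0.35 (adjusted p = 0.000202, detected in 2 of 3 tumors) and 3.00 ± 0.46 (adjusted p = 9.14e-05). Hepatocyte transcription factors passed at about the share of all genes, with 3 of 29 higher (10.3% against 10.8%) and 2 lower (6.9% against 8.42%). *Foxa3* rose by 1.13 ± 0.25 (adjusted p = 0.0021) and *Tbx3*, of the perivenous zone, fell by 1.56 ± 0.44 (adjusted p = 0.0137). *Hnf4a*, the main factor of hepatocyte identity, did not pass, with a difference of 0.27 ± 0.18 (adjusted p = 0.33). *Tbx3* lost its call without liver A_01 or tumor B_12 (adjusted p = 0.0617 to 0.127). *Tbx3* did not pass when the 6 arrays were fitted alone (adjusted p = 0.0899).

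Genes of the respiratory chain fell. Oxidative phosphorylation was measured by 70 genes, of which 26 fell and 1 rose (median -0.44), including 16 of 32 of complex I, while of 15 of ATP synthase 3 fell. The per-tumor medians, -0.39, -0.41 and -0.34, were alike. *Sdhb*, the iron-sulfur subunit of succinate dehydrogenase, had values of 9.42, 9.76 and 9.94 in the tumors and 10.67, 10.86 and 11.10 in the livers and fell by 1.16 ± 0.18 (adjusted p = 6.68e-05), and *Ndufb3*, of complex I, fell by 0.80 ± 0.15 (adjusted p = 0.00057). The one that rose, *Cox6a2*, is a muscle form and was undetected in all livers. Without liver C_17, 15 genes of the list fell. Of 22 genes of glycolysis and the pentose phosphate pathway only lactate dehydrogenase *Ldha* rose, by 0.54 ± 0.17 (adjusted p = 0.0256), and the median of the list was -0.01. *Ldha* lost its call without liver A_01 or tumor B_12 (adjusted p = 0.119 to 0.16). *Ndufb3*, *Cox6a2* and *Ldha* did not pass when the 6 arrays were fitted alone (adjusted p = 0.0544 to 0.221).

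Cholesterol synthesis rose in 5 of 18 genes with none lower (median 0.70). *Sqle*, squalene epoxidase, had values of 11.58, 11.99 and 12.11 in the tumors and 9.83, 9.86 and 9.07 in the livers and rose by 2.31 ± 0.42 (adjusted p = 0.000407), and *Lss* and *Cyp51*, the next steps, rose by 2.03 ± 0.52 (adjusted p = 0.00732) and 1.36 ± 0.33 (adjusted p = 0.00477). Among genes of lipid uptake, *Lpl*, lipoprotein lipase, which adult hepatocytes normally keep low, had values of 12.88, 13.07 and 13.26 in the tumors and 9.31, 9.33 and 9.00 in the livers. Both groups were tight and apart, a rise by 3.86 ± 0.39 (adjusted p = 2.01e-06). The desaturases *Fads1* and *Fads2* rose by 0.94 ± 0.31 (adjusted p = 0.0331) and 2.04 ± 0.61 (adjusted p = 0.0198), and the lipogenic protein *Thrsp* fell by 2.82 ± 0.74 (adjusted p = 0.00847). Of the lipogenesis list, 4 of 20 rose and 1 fell (median 0.01). Lipid uptake and droplets had 3 of 22 genes higher (13.6%) and 1 lower (4.55%), with a median of 0.11. The shares of all genes were 10.8% higher and 8.42% lower, so the large rises of single genes do not stand for these lists. Of fatty acid oxidation, 3 of 23 fell, against 8.42% of all genes, and 1, *Fgf21*, rose, and without liver C_17 none fell. None of the 12 clock genes tested passed in limma, and 0 had an unadjusted p under 0.05. Without liver C_17, 3 genes of cholesterol synthesis rose, and lipogenesis ranged from 2 genes without A_08, B_09 or B_12 to 7 without A_01. Without B_12, 1 gene of lipid uptake and droplets rose, against 5 without A_04. *Lss* lost its call without liver C_17 (adjusted p = 0.0517), *Fads1* without tumor A_08, liver B_09, tumor B_12 or liver C_17 (adjusted p = 0.0628 to 0.135), *Fads2* without tumor A_08, liver B_09 or tumor B_12 (adjusted p = 0.0595 to 0.0899) and *Thrsp* without tumor B_12 (adjusted p = 0.0875). *Thrsp* did not pass when the 6 arrays were fitted alone (adjusted p = 0.0741).

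Ribosomal protein genes were measured by 55 genes, of which 10 (18.2%, against 10.8% of all genes) rose and none fell (median 0.27, summed signal 360114 to 381014 in the tumors and 255653 to 331317 in the livers), led by *Rps12* at 0.80 ± 0.17 (adjusted p = 0.00197). Without liver B_09, 2 of them rose, and without tumor A_08 or B_12, 5. Of 27 genes of ribosome biogenesis 1 rose, and of 33 proteasome genes 1 rose and 1 fell. *Rps12* did not pass when the 6 arrays were fitted alone (adjusted p = 0.0603).

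Genes of secreted hepatocyte proteins rose in part. Of the 9 secreted hepatocyte markers 4 rose and none fell (median 0.31), and of 5 hepatocyte enzymes and factors none rose and 1 fell (median -0.39). *Alb*, albumin, had values of 11.56, 11.79 and 11.61 in the tumors and 10.73, 10.53 and 9.68 in the livers and rose by 1.34 ± 0.29 (adjusted p = 0.0021), and *Ttr*, transthyretin, did not pass, with a difference of -0.01 ± 0.12 (adjusted p = 0.954), and both markers of the labeled tissue were detected in every tumor. Without any 1 of liver A_01, tumor A_08, tumor B_12 or liver C_17, 2 of these markers rose. Acute-phase genes rose in 14 of 29 cases and 1 fell (median 0.54). *Il1rn*, the interleukin 1 receptor antagonist, was at least 12.4-fold (adjusted p = 0.000693) higher, and the copper protein *Cp* and the metallothionein *Mt1* rose by 1.37 ± 0.23 (adjusted p = 0.000199) and 2.18 ± 0.36 (adjusted p = 0.000181). *Orm1*, a classical acute-phase glycoprotein, went the other way, with values of 10.56, 9.67 and 12.54 in the tumors and 13.02, 13.65 and 13.63 in the livers, a fall by 2.51 ± 0.62 (adjusted p = 0.00621). *Ahsg* and *Serpina6*, which fall in an acute-phase response, rose by 0.90 ± 0.22 (adjusted p = 0.00558) and 2.04 ± 0.35 (adjusted p = 0.00026). Without tumor B_12, or without liver C_17, 8 acute-phase genes rose. Among other secreted groups, 3 of 23 coagulation genes and 2 of 15 apolipoproteins (13.3%) rose, near the 10.8% of all genes. Of 17 complement genes 3 (17.6%) rose and 4 (23.5%, against 8.42% of all genes) fell, with a median of -0.43. *Hamp*, hepcidin, the hormone of iron, fell by 1.00 ± 0.33 (adjusted p = 0.0376). Without B_12, 1 coagulation gene rose, and of complement 4 rose and 1 fell (median 0.09). *Orm1* lost its call without tumor A_08 (adjusted p = 0.0516) and *Hamp* without liver B_09, tumor B_12 or liver C_17 (adjusted p = 0.0997 to 0.335). *Ahsg* and *Hamp* did not pass when the 6 arrays were fitted alone (adjusted p = 0.0917 to 0.26).

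Some markers of resident macrophages fell, and genes of injury macrophages rose. Of 17 Kupffer cell markers 5 fell and none rose (median -0.44, summed linear signal 6435 to 14249 in the tumors and 12204 to 15122 in the livers). *Cd163*, the hemoglobin scavenger receptor, had values of 7.34, 4.77 and 5.04 in the tumors and 8.72, 8.05 and 8.13 in the livers and fell by 2.59 ± 0.42 (adjusted p = 0.000153, detected in 1 of 3 tumors). *Clec4f*, found only on Kupffer cells among macrophages, had values of 9.64, 8.82 and 7.66 in the tumors and 10.13, 9.89 and 9.98 in the livers and fell by 1.29 ± 0.38 (adjusted p = 0.0176), with B_12 the lowest. *Adgre1*, the general macrophage marker F4/80, did not pass, with a difference of -0.13 ± 0.29 (adjusted p = 0.804). Without A_04, 8 Kupffer markers fell, and without B_12, 3. Of 13 genes of lipid-associated macrophages 7 rose (median 1.80, summed signal 28190 to 41674 in the tumors and 14305 to 16770 in the livers). *Gpnmb*, a lysosomal membrane protein, had values of 6.38, 8.67 and 8.40 in the tumors and 4.99, 4.72 and 4.50 in the livers and was at least 5.28-fold (adjusted p = 0.00186) higher, and *Mmp12*, macrophage elastase, was at least 5.91-fold (adjusted p = 5.4e-05) higher. Several of the list (*Cd63*, *Lpl*, *Fabp5*, *Cd9*) are also made by other cells, and *Trem2*, a defining gene, was undetected in all livers and did not pass. The part of macrophages in other results was not tested. *Clec4f* lost its call without liver A_01 or tumor B_12 (adjusted p = 0.0502 to 0.161) and *Fabp5* without tumor B_12 or liver C_17 (adjusted p = 0.101 to 0.156). *Clec4f* did not pass when the 6 arrays were fitted alone (adjusted p = 0.105).

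Interferon-stimulated genes rose in 12 of 35 cases with none lower (median 0.74, or 0.63 with bounds). Tumor A_04 had the highest median, 1.28, against 0.37 and 0.24, and without it 7 rose. Of MHC genes, 3 of 14 of class I and 2 of 10 of class II rose, and without B_12 1 of class I. The class II count ran from 0 without B_09 or B_12 to 5 without A_04. *Isg15*, a ubiquitin-like modifier, had values of 9.72, 7.58 and 8.14 in the tumors and 6.78, 6.33 and 7.22 in the livers and rose by 1.70 ± 0.39 (adjusted p = 0.00321). Of 32 cytokine, chemokine and adhesion genes 11 rose and 2 fell. *Icam1*, a ligand of leukocyte integrins, had values of 8.04, 8.97 and 9.14 in the tumors and 6.75, 7.03 and 6.64 in the livers and rose by 1.91 ± 0.25 (adjusted p = 1.85e-05). *Cxcl1*, which attracts neutrophils, rose by 2.34 ± 0.42 (adjusted p = 0.000411) and *Cxcl9*, which attracts T cells, by 2.57 ± 0.52 (adjusted p = 0.00119). Lymphocyte markers were little measured: of 8 T and natural killer cell genes 1, *Ccl5*, rose (summed signal 310 to 714 in the tumors and 233 to 346 in the livers), and of 4 B cell genes none passed in limma and 0 had an unadjusted p under 0.05. Without A_08, B_09, B_12 or C_17 no T or natural killer cell gene rose, and without A_04 3 did. *Nfe2*, a factor of blood precursors that the study names, had values of 7.89, 8.12 and 7.11 in the tumors and 5.43, 5.17 and 4.67 in the livers and rose by 2.62 ± 0.53 (adjusted p = 0.00106, detected in 1 of 3 livers). *Ccl5* lost its call without tumor A_08, liver B_09, tumor B_12 or liver C_17 (adjusted p = 0.0607 to 0.0966). *Isg15* and *Ccl5* did not pass when the 6 arrays were fitted alone (adjusted p = 0.0689 to 0.0866).

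General endothelial genes rose in part. Of 14 general and capillary genes 6 (42.9%) rose and none fell, and of 12 sinusoidal genes 1 rose and 2 fell (summed signal of both 11899 to 15984 in the tumors and 9357 to 11375 in the livers). *Emcn*, of capillaries and veins, had values of 8.54, 8.35 and 8.49 in the tumors and 7.29, 6.77 and 6.90 in the livers and rose by 1.47 ± 0.26 (adjusted p = 0.000348). Over both groups of endothelial genes 7.69% fell, near the share of all genes, and without A_01, B_12 or C_17 none did. *Wnt2* and *Rspo3*, the Wnt signals that endothelium of the central vein sends to hepatocytes, fell by 0.98 ± 0.29 (adjusted p = 0.0196) and 0.95 ± 0.28 (adjusted p = 0.0169, detected in 2 of 3 tumors). Of 20 matrix genes 7 rose and none fell. *Nid1*, which links laminin to collagen IV in basement membranes, had values of 10.41, 10.74 and 10.91 in the tumors and 6.56, 6.64 and 5.87 in the livers and rose by 4.33 ± 0.60 (adjusted p = 3.14e-05), and *Col4a1* rose by 2.11 ± 0.31 (adjusted p = 4.31e-05). Of 16 stellate and fibroblast genes 4 fell (25.0%, against 8.42% of all genes) and 1 rose (6.25%, against 10.8%), with a median of -0.25. The gene that rose was *Acta2*, of contractile cells, by 2.44 ± 0.39 (adjusted p = 0.000133). *Lrat*, of quiescent stellate cells, fell by 1.19 ± 0.41 (adjusted p = 0.042, detected in 2 of 3 tumors). The summed signal of the stellate and matrix list was 22748 to 26398 in the tumors and 16226 to 26898 in the livers, and the part of these cells in other results was not tested. *Wnt2* lost its call without liver A_01, tumor A_08, tumor B_12 or liver C_17 (adjusted p = 0.0571 to 0.159), *Rspo3* without liver A_01, tumor B_12 or liver C_17 (adjusted p = 0.0536 to 0.147) and *Lrat* without liver A_01, tumor B_12 or liver C_17 (adjusted p = 0.0872 to 0.294). *Wnt2*, *Rspo3* and *Lrat* did not pass when the 6 arrays were fitted alone (adjusted p = 0.116 to 0.213).

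Epithelial and cytoskeletal genes rose in 18 of 26 cases with none lower (median 0.96). *Krt8*, a keratin of hepatocytes, had values of 12.14, 12.38 and 12.83 in the tumors and 11.47, 11.55 and 11.36 in the livers and rose by 0.99 ± 0.17 (adjusted p = 0.000212). *Anxa2*, a membrane-binding annexin, had values of 12.51, 12.74 and 13.08 in the tumors and 10.28, 9.23 and 10.24 in the livers and rose by 2.86 ± 0.49 (adjusted p = 0.000246). The duct marker list held 8 tested genes, of which only the keratin *Krt23* rose, by 3.19 ± 0.62 (adjusted p = 0.00075), and the duct keratin *Krt7* was not detected in any tumor. Of 19 genes of the BCL2 family and death receptors 6 rose (31.6%, against 10.8% of all genes), and without liver B_09 3 rose. Among the 6 were protective genes (*Bcl2* by 0.94 (detected in 1 of 3 livers), *Mcl1* by 0.49) and death-promoting ones (*Bcl2l11* by 1.20 (detected in 2 of 3 livers), *Bok* by 1.23). *Bcl2* lost its call without liver A_01, tumor A_04, tumor A_08, liver B_09 or liver C_17 (adjusted p = 0.0535 to 0.111), *Mcl1* without tumor A_04, tumor A_08, liver B_09 or liver C_17 (adjusted p = 0.0533 to 0.0745) and *Bok* without liver B_09 or tumor B_12 (adjusted p = 0.0624 to 0.067). *Mcl1* did not pass when the 6 arrays were fitted alone (adjusted p = 0.222).

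**Figure D4:**
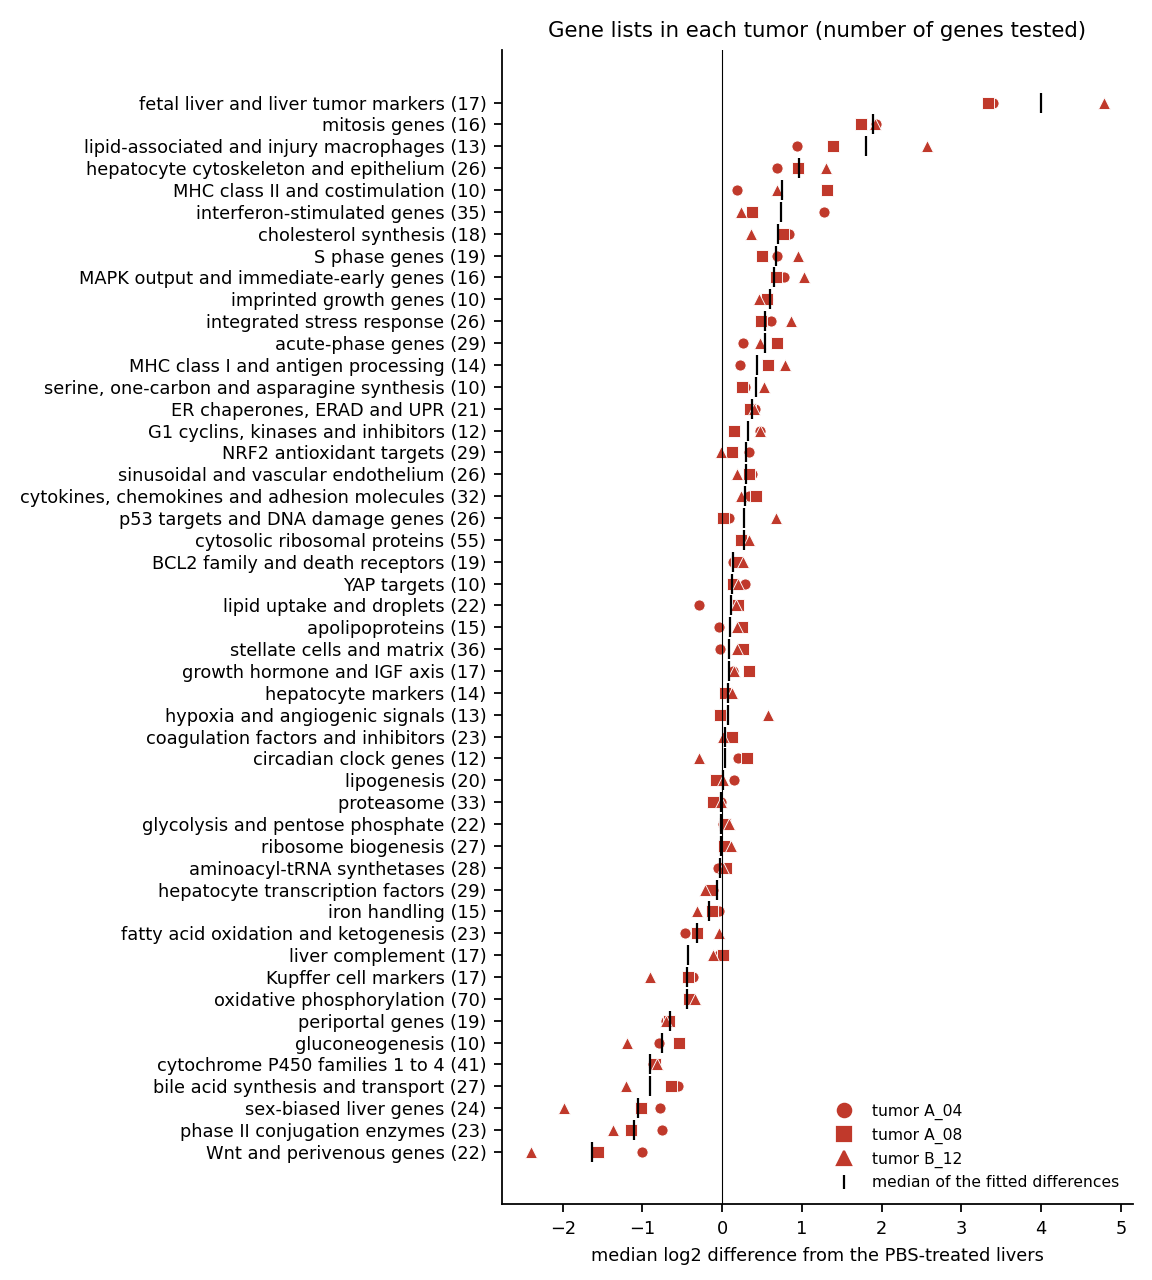
Median log2 difference of each tumor from the mean of the PBS-treated livers (x axis) for each gene list with at least 10 tested genes (y axis, number of genes tested in parentheses). Symbols are the 3 tumors and black bars the medians of the fitted differences, and the Wnt and perivenous list runs from -1.0 in A_04 to -2.40 in B_12.

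Against whole livers of DEN-treated mice, the same 3 tumors differed in 2003 genes (22.3%), 1086 higher (12.1%) and 917 lower (10.2%). The tumors are shared with the first comparison, so the results are not independent of it. All 16 of 16 mitosis genes and 11 of 26 stress response genes were higher than in DEN-treated livers, and 16 of 22 perivenous genes were lower. Of the 17 fetal and tumor markers 9 were higher and 1 lower (median 2.13), against 13 and 0 from PBS-treated livers (median 4.00). *Nupr1* was at 5.45 to 6.12 (median 5.95, detected in 5 of 6) in the 6 DEN-treated livers, and the tumors were higher by 3.75 ± 0.34 (adjusted p = 2.96e-07). *Ddit3* was at 6.09 to 6.90 (median 6.51) and higher in the tumors by 2.13 ± 0.17 (adjusted p = 8.43e-08). For both, the DEN-treated livers were nearer to the PBS-treated ones than to the tumors. Fetal and tumor markers differed in their levels in DEN-treated livers, which lay between the other groups: *Akr1c18* was at 7.57 to 9.09 (median 8.32), *Tff3* at 9.33 to 10.67 (median 9.88) and *Afp* at 6.21 to 7.04 (median 6.39). Differences of tumors from these livers were 3.55 ± 0.77 (adjusted p = 0.00179) for *Akr1c18*, 2.81 ± 0.70 (adjusted p = 0.00526) for *Tff3* and 2.60 ± 0.96 (adjusted p = 0.0549) for *Afp*, the last of which did not pass. The share of nodular tissue in these livers was not measured.

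**Figure D5:**
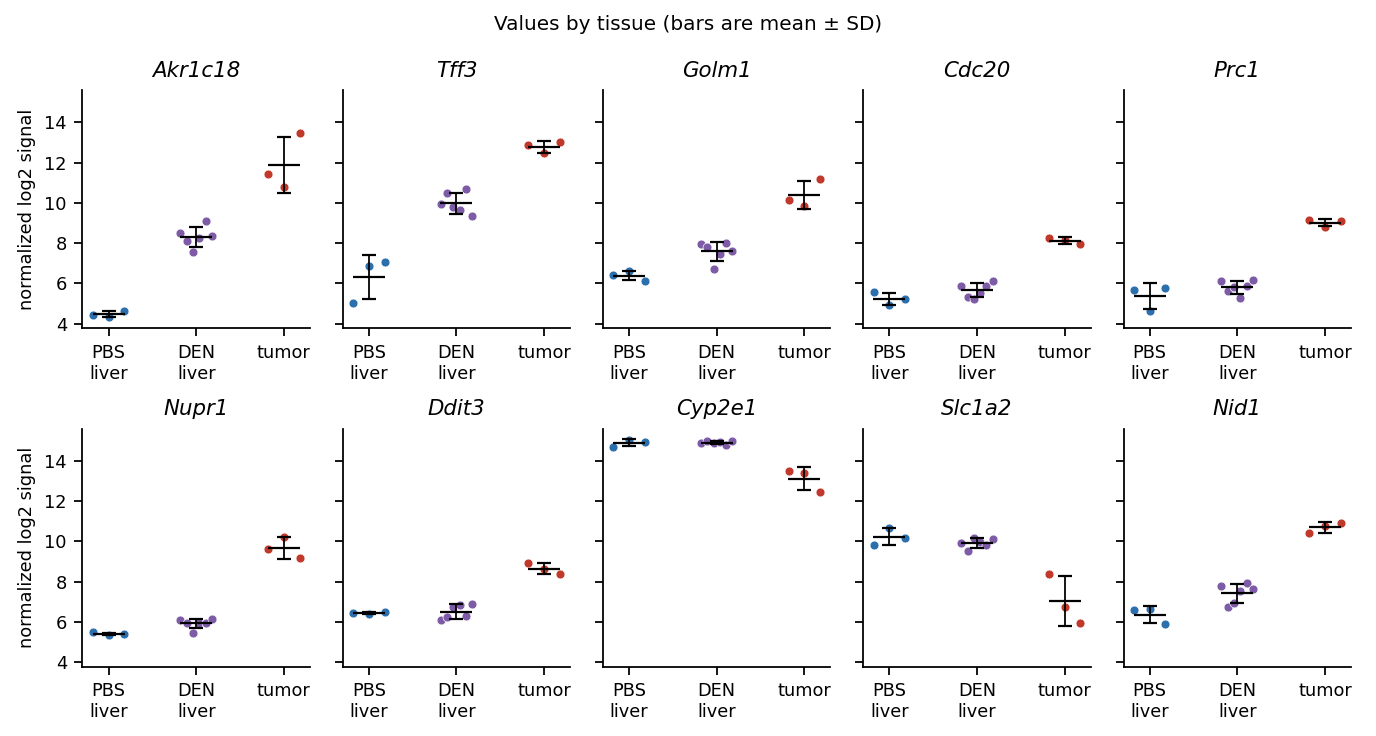
Normalized log2 signal (y axis) of 10 genes in PBS-treated livers (n = 3), DEN-treated livers (n = 6) and tumors (n = 3), with 1 point per array and bars for mean ± SD. DEN-treated livers lie between the other groups for *Akr1c18* and *Tff3* and nearer to the PBS-treated livers for *Nupr1*, *Ddit3* and *Cyp2e1*.

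The tumors varied more among themselves than the PBS-treated livers did for a tail of genes. The median SD was 0.26 in tumors (n = 3), 0.30 in PBS-treated (n = 3) and 0.24 in DEN-treated livers (n = 6). An SD over 1 was found for 250 genes (2.79%) in the tumors, against 111 (1.24%) and 18 (0.201%). An SD of 6 arrays scatters less than that of 3, so the count for DEN-treated livers is not directly comparable. The largest SDs among the tumors were mostly set by B_12. *Csn3*, a casein, was at 4.85, 4.47 and 11.81 in the tumors and 4.66, 4.34 and 4.31 in the livers, *A2ml1*, a protease inhibitor, at 11.08, 12.62 and 5.43 in the tumors and 8.52, 9.20 and 9.00 in the livers, and *Wfdc12*, of the whey acidic protein family, at 7.18, 6.99 and 12.77 in the tumors and 4.50, 5.21 and 4.44 in the livers. Tumor B_12 was alone high in *Csn3* and alone low in *A2ml1*, and in *Wfdc12* it was far above the other tumors, which were themselves above all livers. *Cyp17a1*, of androgen synthesis, was at 7.84, 8.32 and 11.92 in the tumors and 7.90, 6.35 and 7.76 in the livers and *Inhbb*, a subunit of activin B, at 6.04, 6.02 and 10.02 in the tumors and 5.41, 4.68 and 5.10 in the livers, again with B_12 apart and the other tumors near the livers. *Hamp2*, a close copy of the hepcidin gene, was at 9.90, 12.06 and 5.97 in the tumors and 10.36, 8.72 and 9.40 in the livers, on both sides of the livers. These genes were chosen for their spread, so it is given without a test.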

How the data were processed

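RNA of 24 liver and tumor samples was measured on Illumina MouseRef-8 v2.0 arrays, and 6 samples enter the main comparison. The deposited intensity values, 1 per probe and array, were collected by the authors with GenomeStudio 2011.1. They look background subtracted and quantile normalized already, and 26.9% were negative. A detection p-value stands beside each deposited intensity. The authors' deposited log2 values of the same arrays were used as an alternative only. Arrays were matched to samples by group, not by replicate number, and 48 value columns of other measures were not used.

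Intensities were corrected with neqc of limma 3.58.1 (R 4.3.3), which uses the detection p-values, adds an offset of 16, normalizes by quantiles and takes log2. Of 25697 probes, 12707 were kept (detection p under 0.01 on at least 2 arrays), and the brightest probe stood for each of 8969 genes. Of 401 called genes with several probes, 33 had probes that differed in sign. A model of all 6 groups over 24 arrays was fitted with lmFit and eBayes, and p-values were adjusted over all genes by the Benjamini-Hochberg method. The methods count samples by animal, and the labels do not name the animals. On simulated data of the same size, 17.9% of genes changed 1.5-fold, 70.1% changed 2-fold and 95.5% changed 4-fold were recovered, with 6 false calls. The simulation changed 67, 67 and 66 of 8969 genes, a smaller share than passed in the real data. Recovery at a larger share was not tested. The number of arrays limits the precision.

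For a gene undetected on every array of a group, the fold is the mean of the other group against the mean, over that group's arrays, of the lowest detected signal or the gene's own, whichever was higher. Sums of signal over a list are of linear values. Probes were named from the platform's annotation, and promoters came from RefSeq (GRCm38.p6).

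The gene lists and the members named were chosen with earlier results of these data known. Genes were named by rule: 5 genes of the study, the 20 largest changes in each direction among called genes without overlap, up to 6 genes a list with the smallest p and the first 2 of each role, and the 15 with the largest SD among tumors. *Ass1*, *Atf4*, *Atf5*, *Aurka*, *Cd24a*, *Cenpa*, *Cth*, *Cxcl9*, *Cyp2c37*, *Cyp4a12a*, *Cyp7b1*, *Ddit4l*, *Dusp6*, *Foxm1*, *Gnmt*, *Gpc3*, *Hsd3b5*, *Igf2bp3*, *Kif11*, *Lgr5*, *Orm1*, *Pcna*, *Phlda3*, *Ppp1r15a*, *Robo1*, *Slc1a4*, *Slc7a5*, *Sp5*, *Trib3* and *Ugt2b1* fell outside it and were added after their values were seen. The authors' own comparison columns were not used.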

Additional observations from a re-analysis of the deposited data

Results flagged for a closer look

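Among 59 list levels tested in the 6 DEN-treated wild-type livers, 5 had 1 liver far from the others, and chance alone flags about 1 in 20. The mean log2 level of the p53 and DNA damage list was 6.83 in that liver, with a median of 7.05 over the group. For liver complement the value was 11.87 against a median of 12.03, and for iron handling 9.75 against 10.03. Ribosome biogenesis was at 7.82 against 7.87, and the BCL2 family and death receptors at 6.87 against 7.01.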

How the results depend on the processing

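The 1727 genes that passed between tumors and PBS-treated livers became 718 when only the 6 arrays were fitted and 20, all higher, with an equal-variance test of each gene on the 6 arrays without moderation. With the authors' log2 values of the 6 arrays, 492 passed with the replicate number as a block and 516 without it, the latter chosen after seeing the data. Tumors and livers came from differently treated mice, so the numbers do not pair them by animal. After removal of the group means, same-numbered tumors and livers correlated at 0.25, 0.169 and -0.029, and differently numbered ones at -0.226 to 0.0547. Whether same-numbered samples share a batch was not tested. All other settings gave 1455 to 1783, and leaving out 1 array gave 1212 to 1727. At the study's thresholds, 1975 genes became 1124 with the authors' log2 values, 1078 with the replicate block, 1046 without it and 1251 with the equal-variance test, and leaving out 1 array gave 1780 to 2243. Between tumors and DEN-treated livers, 2003 genes became 3098 with array weights, and leaving out 1 array gave 1363 to 1856. No named gene that passed changed sign, while calls of the liver complement list went from 3 higher and 4 lower to 4 and 1 without B_12, and those of the NRF2 list from 3 and 2 to 1 and 4 without B_09. Of 1134 list medians under alternatives, 152 moved by more than 1 SD. The causes were not tested. Signals near background limit genes undetected in a whole group to bounds.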
